A study of Homo sapiens with 6 samples.

Results

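The 31 genes described here encode enzymes and regulators of cholesterol and fatty acid synthesis. They are a list of gene names, drawn up with earlier results of these data known, and were found by GENCODE release 29 name among the 58735 gene IDs that each of 6 RNA sequencing files holds. All 31 were present, and all 31 passed the filter on low values. Total RNA came from NCI-N87, an established human gastric carcinoma line known for amplification of the receptor gene ERBB2. There were 3 groups of 2 libraries: cells of wild-type genotype (WT), and KRT17 knockout cells named KO1 and KO2. KRT17 encodes keratin 17, an intermediate filament protein of stressed epithelia. The series title concerns keratin 17 in diffuse gastric cancer, and the comparison sets transcript levels in libraries labelled as KRT17 knockout against those in WT. The labels do not say whether KO1 and KO2 are guides or clones, name no non-targeting control, and do not say whether the libraries of a group were grown separately. Any p-value below is thus set against library-to-library spread alone, which may be technical.

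Cholesterol is built from acetyl-CoA through mevalonate, the isoprenoid farnesyl diphosphate, squalene and a chain of sterol intermediates. Fatty acids are built from the same acetyl-CoA by acetyl-CoA carboxylase and fatty acid synthase, then elongated and desaturated. Both routes are switched on by the sterol regulatory element-binding proteins (SREBPs), transcription factors held in the endoplasmic reticulum membrane by INSIG proteins and carried to the Golgi for cleavage by SCAP when sterols are low. Carcinoma cells are known for high fatty acid synthesis, which supplies membrane lipid.

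Levels are the authors' deposited FPKM values, in which fragments are scaled to exon length and sequencing depth. Library depth ranged from 17599759 to 22852340 recovered reads, and 1 read in a gene of 1 kb equalled 0.0429 to 0.0544 FPKM. That value did not follow recovered reads alone. It was 0.0463 FPKM in WT replicate 1 (22852340 reads) and 0.0429 in KO1 replicate 1 (22673871 reads). KRT17 stood at 739 and 753 FPKM in the WT libraries, 2.29 and 2.40 in the libraries labelled KO1, and 11.3 and 10.4 in those labelled KO2. The markers of the labelled cell type did not hold across the groups. All 6 genes of a general epithelial list (EPCAM, CDH1, KRT8, KRT18, KRT19 and ERBB2) were lower in both knockout groups, and their summed level was 4988 to 5154 FPKM in WT, 380 to 391 in KO1 and 321 to 323 in KO2. ERBB2 stood at 1387 FPKM (mean of 2) in WT, 5.82 in KO1 and 5.29 in KO2, and KRT19 had 161100 reads in WT against 10 in KO1 and 0 in KO2. Of 6 gastric epithelial markers, 3 were tested (MUC1, TFF1 and MUC5AC), and these went the other way, with 3 higher in KO1 and 2 higher in KO2, MUC5AC not being called there. Their list summed to 5.84 to 5.88 FPKM in WT, 44.0 in both KO1 libraries and 49.1 to 51.1 in KO2, of which MUC1 gave 5.52, 30.4 and 48.0 (group means). Of 6 fibroblast markers, 4 were tested and all 4 were higher in both knockout groups, with a summed level of 0.745 to 0.871 FPKM in WT, 44.5 to 45.0 in KO1 and 55.3 to 57.8 in KO2, while COL1A2 had 0 reads in WT, 8 in KO1 and 2 in KO2. Of 6 leukocyte markers 2 were tested and both were higher, with PTPRC and CD3E at 6 reads or fewer in any group. The other members, CD14 and LYZ, were not tested and had fewer reads in the knockout groups. CD14 had 76 reads in WT, 19 in KO1 and 33 in KO2, and LYZ had 24, 0 and 1. None of the 4 endothelial or 4 adipocyte markers passed the filter, and of 4 hepatocyte markers only SERPINA1 did, which was lower in both knockout groups. The part of these marker differences in the results below was not tested, and the groups are called by their labels throughout. An effect of the KRT17 knockout and any other difference between WT and knockout libraries, including in cell identity, cannot be told apart here.

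Most of the 31 genes were lower in the knockout libraries, while ELOVL5 and FADS1 were far higher, and FADS2, EBP, INSIG1 and, in KO2, PMVK rose at least 2.02-fold. A gene was called when its limma Benjamini-Hochberg adjusted p was below 0.05 over the 16046 genes tested, on log2(FPKM + 1). In KO1 against WT, 20 of the 31 were called lower (64.5%, against a background of 38.6% of all tested genes) and 9 higher (29%, against 39.3%). In KO2 against WT, 20 were called lower (64.5%, against 39.8%) and 9 higher (29%, against 39.1%). Over the 31 genes the median difference from WT was -0.45 log2 for KO1 and -0.66 for KO2, beside 0.02 and 0.01 over all genes tested. Better expressed genes leaned lower too. Of 9303 genes reaching 5 FPKM in 2 or more libraries, 4244 were called lower and 3898 higher in KO1 (median -0.04 log2). In KO2 4393 of them were lower and 3801 higher (median -0.08). Of the 31 genes, all but FADS2 passed that filter. Both comparisons use the same WT libraries. In bulk RNA, fewer cells of a type and less RNA per cell cannot be told apart. With each library left out in turn, 27 of the 29 calls in KO1 and 26 of the 29 in KO2 were kept, and the exceptions are given with the genes concerned. When a difference beyond 1.5-fold was required, 11 genes were lower in KO1 (background 18.8%) and 5 higher (18.4%), and in KO2 12 were lower (20%) and 6 higher (18.6%).

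**Figure D1:**
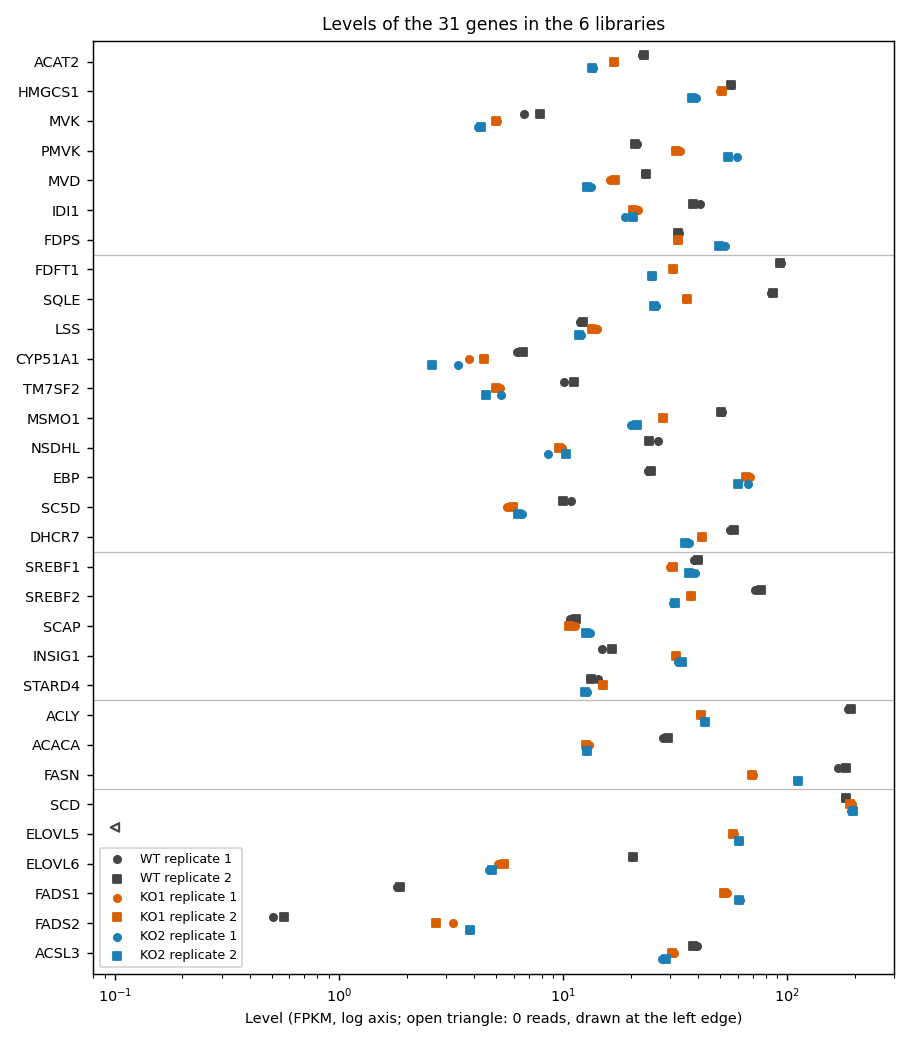
Level of each of the 31 genes (vertical axis, ordered by role, with lines between the groups of roles) in FPKM on a log axis, 1 point per library, with WT in grey, KO1 in orange and KO2 in blue. Replicates mostly overlie each other, ACLY falls from 187 and 193 FPKM in WT to 40.6 to 42.8 in the knockout libraries, and ELOVL5 goes from 0 reads in WT (open triangle) to 57.3 to 60.9 FPKM.

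**Figure D2:**
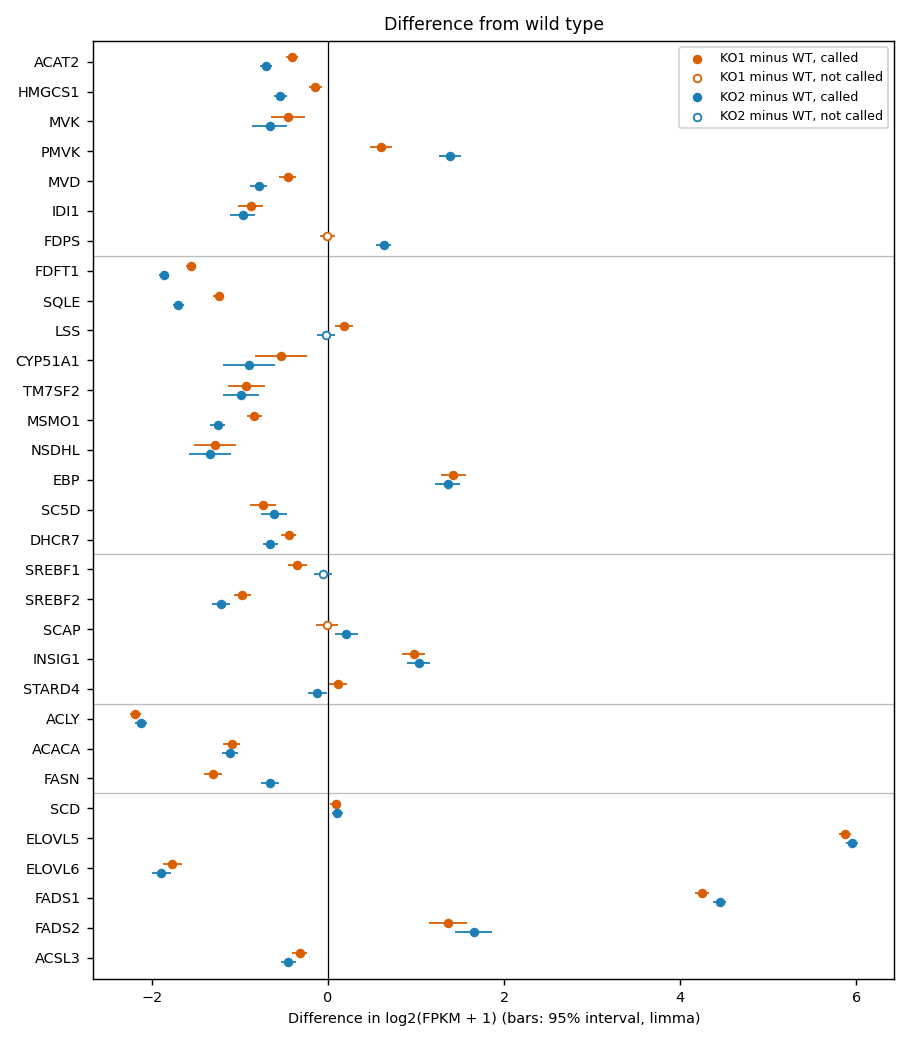
Difference from WT of each gene (vertical axis) on the log2(FPKM + 1) scale, with the 95% interval from limma as bars, filled where called and open where not. The fatty acid synthesis genes and most sterol genes lie left of 0, and ELOVL5 and FADS1 lie farthest right, at 5.87 and 4.25 in KO1 and at 5.95 and 4.45 in KO2.

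Sequence just upstream of the start site was read for the genes on which the regulatory part of the results turns, namely SREBF2 and HMGCS1, which were lower, and INSIG1, ELOVL5 and FADS1, which were higher. The 180 bases before the RefSeq start (GRCh38.p14) are shown 5′ to 3′ on the gene's strand, for SREBF2 (chr22:41832925-41833104, plus strand), HMGCS1 (chr5:43313413-43313592, minus), INSIG1 (chr7:155297698-155297877, plus), ELOVL5 (chr6:53348951-53349130, minus) and FADS1 (chr11:61817004-61817183, minus). GENCODE gene spans reach beyond these RefSeq starts, so each stretch lies wholly or partly inside the GENCODE gene. Capitals mark, on either strand, the sterol regulatory element TCACNCCAC that SREBPs bind, the CCAAT box bound by NF-Y (an SREBP partner), and the palindromic E-box CACGTG.
SREBF2: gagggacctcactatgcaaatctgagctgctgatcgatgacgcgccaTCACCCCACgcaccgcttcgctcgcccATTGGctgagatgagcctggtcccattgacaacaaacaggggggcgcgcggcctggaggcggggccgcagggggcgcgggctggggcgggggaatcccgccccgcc
HMGCS1: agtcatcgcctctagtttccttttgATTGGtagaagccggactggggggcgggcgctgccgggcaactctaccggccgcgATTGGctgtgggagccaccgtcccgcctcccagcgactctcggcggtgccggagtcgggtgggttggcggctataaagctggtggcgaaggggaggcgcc
INSIG1: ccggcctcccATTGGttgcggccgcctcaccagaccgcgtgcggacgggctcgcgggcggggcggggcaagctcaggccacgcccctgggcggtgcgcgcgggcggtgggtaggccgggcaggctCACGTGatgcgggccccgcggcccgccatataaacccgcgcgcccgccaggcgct
ELOVL5: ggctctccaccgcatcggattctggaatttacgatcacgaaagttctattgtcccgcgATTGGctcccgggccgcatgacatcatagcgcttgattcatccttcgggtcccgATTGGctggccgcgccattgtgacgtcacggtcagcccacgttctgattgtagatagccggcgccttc
FADS1: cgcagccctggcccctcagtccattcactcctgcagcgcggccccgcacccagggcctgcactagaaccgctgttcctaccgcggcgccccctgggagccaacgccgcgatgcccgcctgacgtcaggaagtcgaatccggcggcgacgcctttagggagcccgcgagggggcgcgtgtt

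In SREBF2 the sterol element begins 133 bases before the start and a CCAAT box 106 bases before it. HMGCS1 has CCAAT boxes 155 and 100 bases before its start, and ELOVL5 has them 122 and 68 bases before its own. INSIG1 has a CCAAT box 170 bases and an E-box 55 bases before the start, and the FADS1 stretch holds none of the 3 motifs. RefSeq windows (250 bases before to 50 after a start) were matched for 27 of the 31 genes, in 36 windows, and there was no entry for ACAT2, SQLE, FASN and FDFT1. TCACNCCAC was found in the window of 1 of the 27 genes (3.70%), SREBF2, and in 1.51% of 15842 protein-coding genes. Only exact matches to these letters inside the windows were counted, so a gene without a match is not shown to lack SREBP sites. CCAAT was found in 21 of the 27 (77.8%), against 42.1% of protein-coding genes. CACGTG was found in 5 (18.5%, ELOVL5, INSIG1, LSS, SC5D and SCAP), against 10.9%. The GC box GGGCGG, which Sp1 binds, was found in 25 (92.6%), against 64.3%. The 15842 protein-coding genes were not limited to those passing the filter on low values, which all 31 genes passed. The part of this in the differing shares was not tested.

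The 7 genes of the mevalonate pathway, from acetyl-CoA to farnesyl diphosphate, gave 5 lower and 1 higher in KO1 and 5 lower and 2 higher in KO2. Of all tested genes, 38.6% were lower and 39.3% higher in KO1, and 39.8% and 39.1% in KO2. Their summed level was 202 to 203 FPKM in WT, 174 to 176 in KO1 and 192 to 201 in KO2. ACAT2, the cytosolic thiolase that makes acetoacetyl-CoA, read 22.5 and 22.8 FPKM in WT, 16.8 in both KO1 libraries, and 13.6 and 13.4 in KO2, so the 3 groups did not overlap. HMGCS1, the synthase that makes HMG-CoA, read 56.3 and 55.9 FPKM in WT, 50.2 and 50.8 in KO1, and 39.0 and 37.4 in KO2. Its difference was -0.15 ± 0.03 log2 (SE) in KO1, with a limma adjusted p of 0.00557, and that call was lost under quantile normalization (0.165), read totals as the only scaling (0.672) and voom (0.678). In KO2 it was -0.54 ± 0.03, with a limma adjusted p of 3.22e-05.

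Mevalonate is phosphorylated by MVK and then by PMVK, and MVD removes the carboxyl group to give isopentenyl diphosphate. MVK, the first kinase, read 6.70 and 7.87 FPKM in WT, 5.04 and 5.03 in KO1, and 4.15 and 4.28 in KO2. MVD read 23.1 and 23.4 FPKM in WT, 16.2 and 17.1 in KO1, and 13.3 and 12.8 in KO2. Both were lower in each knockout group, with no overlap between WT and knockout libraries. PMVK, the kinase between them, went the other way: 21.4 and 21.0 FPKM in WT, 33.3 and 31.8 in KO1, and 59.3 and 54.5 in KO2. Its rise was 0.60 ± 0.05 log2 for KO1 (limma adjusted p = 1.72e-04) and 1.38 ± 0.05 for KO2 (7.90e-06).

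IDI1, the isomerase that makes dimethylallyl diphosphate, read 40.9 and 38.0 FPKM in WT, 21.5 and 20.4 in KO1, and 18.9 and 20.4 in KO2. It was the mevalonate gene with the greatest fall in both groups, 1.88-fold in KO1 and 2.01-fold in KO2. FDPS, the synthase that joins isoprene units into farnesyl diphosphate, read 32.7 and 32.6 FPKM in WT, 32.5 and 32.4 in KO1, and 52.4 and 49.7 in KO2. It was not called in KO1 (-0.01 ± 0.03 log2, 95% interval -0.09 to 0.07, limma adjusted p = 0.845), and was called higher there under quantile normalization, read totals as the only scaling and voom (0.14, 0.12 and 0.13 log2). In KO2 it was 1.57-fold higher.

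Most of the 10 genes from squalene onward fell. In KO1 8 were lower and 2 higher (background 38.6% and 39.3%), and in KO2 8 were lower and 1 higher (39.8% and 39.1%). Their summed level was 374 to 375 FPKM in WT, 239.6 to 242 in KO1 and 202 to 210.0 in KO2. FDFT1, squalene synthase, which commits farnesyl diphosphate to sterols, read 93.3 and 92.7 FPKM in WT, 30.9 and 30.8 in KO1, and 24.8 and 24.9 in KO2. That is 3.02-fold lower in KO1 (-1.56 ± 0.02 log2, limma adjusted p = 5.22e-07) and 3.74-fold lower in KO2 (-1.86 ± 0.02, adjusted p = 3.91e-07). SQLE, the epoxidase that takes squalene into the oxygen-dependent part of the pathway, read 84.8 and 86.1 FPKM in WT, 35.4 and 35.7 in KO1, and 25.8 and 25.4 in KO2. It was 2.40-fold lower in KO1 and 3.34-fold lower in KO2.

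LSS, which closes the rings to give lanosterol, differed little. It read 11.9 and 12.3 FPKM in WT, 14.2 and 13.5 in KO1, and 12.1 and 11.8 in KO2. It was called higher in KO1 (0.18 ± 0.04 log2, limma adjusted p = 0.00863) and not called in KO2 (-0.02 ± 0.04, 95% interval -0.12 to 0.08, adjusted p = 0.645), where its sign changed under quantile normalization (0.08) and it was called higher with read totals as the only scaling and with voom (0.13 and 0.14, adjusted p = 0.0184 and 0.0103).

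Lanosterol is then stripped of 3 methyl groups. CYP51A1, the 14-demethylase, read 6.24 and 6.61 FPKM in WT, 3.82 and 4.43 in KO1, and 3.39 and 2.60 in KO2, from 173 to 483 reads per library. TM7SF2, a C14 sterol reductase, read 10.1 and 11.1 FPKM in WT, 5.19 and 5.02 in KO1, and 5.25 and 4.50 in KO2. Both were lower in each knockout group. MSMO1, the C4 methyl oxidase, read 50.8 and 50.4 FPKM in WT, 27.8 in both KO1 libraries, and 20.1 and 21.2 in KO2, 1.82-fold and 2.45-fold lower. NSDHL, the C4 decarboxylating dehydrogenase, read 26.5 and 24.1 FPKM in WT, 9.90 and 9.61 in KO1, and 8.51 and 10.3 in KO2, so the knockout groups overlapped each other and not WT.

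The last steps move the ring double bonds. EBP, the sterol isomerase, was the only listed gene from squalene onward that rose in both knockout groups. It read 23.9 and 24.6 FPKM in WT, 68.0 and 65.2 in KO1, and 67.0 and 60.5 in KO2, a difference of 1.42 ± 0.06 log2 in KO1 (2.75-fold, limma adjusted p = 1.13e-05) and 1.36 ± 0.06 in KO2 (2.63-fold, adjusted p = 1.27e-05). SC5D, the desaturase that follows it, read 10.8 and 9.96 FPKM in WT, 5.61 and 5.99 in KO1, and 6.57 and 6.29 in KO2. DHCR7, the reductase that turns 7-dehydrocholesterol into cholesterol, read 55.7 and 57.7 FPKM in WT, 41.1 and 41.6 in KO1, and 36.4 and 34.9 in KO2. Both SC5D and DHCR7 were lower in each knockout group.

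The regulators split. SREBF2, the gene of SREBP-2, which acts mainly on cholesterol genes, read 71.4 and 76.5 FPKM in WT, 37.2 and 37.0 in KO1, and 30.9 and 31.7 in KO2. It was 1.99-fold lower in KO1 (-0.97 ± 0.04 log2, limma adjusted p = 1.21e-05) and 2.36-fold lower in KO2 (-1.21 ± 0.04, adjusted p = 5.67e-06). SREBF1, whose products SREBP-1a and SREBP-1c act more on fatty acid genes, read 38.2 and 40.0 FPKM in WT, 30.1 and 30.9 in KO1, and 38.6 and 36.4 in KO2. It was lower in KO1 (-0.35 ± 0.04 log2, limma adjusted p = 7.18e-04) and not called in KO2 (-0.06 ± 0.04, 95% interval -0.16 to 0.05), where the WT and KO2 libraries overlapped. In KO2 it was called higher under quantile normalization and voom (0.11 log2 in each, adjusted p = 0.0392 and 0.0137).

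INSIG1, which retains the SCAP-SREBP complex in the endoplasmic reticulum and is itself a known SREBP target, went opposite to SREBF2. It read 15.0 and 16.5 FPKM in WT, 31.7 and 31.9 in KO1, and 32.5 and 33.7 in KO2. That is 2.02-fold higher in KO1 and 2.10-fold higher in KO2, with limma adjusted p of 3.29e-05 and 2.57e-05. SCAP, the escort protein, read 10.7 and 11.5 FPKM in WT, 11.3 and 10.6 in KO1, and 13.2 and 12.6 in KO2. It was not called in KO1 (-0.01 ± 0.05 log2, 95% interval -0.14 to 0.12), where voom called it higher (0.13). In KO2 it was called higher (0.21 ± 0.05, limma adjusted p = 0.0132), and that call was lost without WT replicate 1 (adjusted p = 0.0555) or KO2 replicate 1 (0.0642). STARD4, a soluble sterol carrier, read 14.3 and 13.3 FPKM in WT, 14.9 and 15.1 in KO1, and 12.8 and 12.4 in KO2. Its calls, higher in KO1 and lower in KO2, stood at limma adjusted p of 0.05 (just under the threshold) and 0.0414, and both were lost in most of the leave-one-out fits (adjusted p 0.0726 to 0.198 for KO1 without WT replicate 2 or any knockout library, and 0.0769 to 0.165 for KO2 without WT replicate 1 or any knockout library).

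The 3 genes of fatty acid synthesis proper were all lower in both knockout groups (background 38.6% in KO1 and 39.8% in KO2). They gave the greatest loss of summed level of the 5 groups of roles. Their sum was 384 and 404 FPKM in WT, 124 in both KO1 libraries, and 165 and 166 in KO2. ACLY, ATP citrate lyase, which makes cytosolic acetyl-CoA for both routes, lies on chromosome 17 (41866908 to 41930542, minus strand, GRCh38). It read 187 and 193 FPKM in WT, 40.6 and 41.1 in KO1, and 42.6 and 42.8 in KO2, which is 4.65-fold lower in KO1 (-2.19 ± 0.03 log2, limma adjusted p = 3.75e-07) and 4.45-fold lower in KO2 (-2.13 ± 0.03, adjusted p = 3.96e-07). In each WT library it had the highest level per length of the 31 genes, ahead of SCD and FASN. ACACA, acetyl-CoA carboxylase 1, which makes malonyl-CoA (chromosome 17, 37084988 to 37406818), read 27.9 and 29.2 FPKM in WT, 13.0 and 12.6 in KO1, and 12.6 and 12.7 in KO2. It was 2.23-fold and 2.26-fold lower. FASN, fatty acid synthase, which makes palmitate (chromosome 17, 82078333 to 82098332), read 169 and 182 FPKM in WT, 70.5 and 69.8 in KO1, and 110.2 and 111 in KO2. It was lower in both, by 2.50-fold in KO1 and 1.59-fold in KO2, and the 3 groups did not overlap.

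Desaturation, elongation and activation of fatty acids was the group of roles in which more genes were called higher than lower. In each knockout group 4 of its 6 genes were higher and 2 lower. The background was 39.3% higher and 38.6% lower in KO1, and 39.1% and 39.8% in KO2. Among the 4 was SCD, whose small rise lost its call with some libraries left out. The summed level was 242 to 243 FPKM in WT, 339 to 346 in KO1 and 351 to 355 in KO2. ELOVL5, which elongates polyunsaturated fatty acids, lies on chromosome 6 (53267398 to 53349179, minus strand, GRCh38). It had 0 reads in both WT libraries, 57.9 and 57.3 FPKM in KO1 (5154 and 4969 reads), and 60.9 and 60.5 FPKM in KO2 (4554 and 4285 reads). Against a floor of 3 reads per library it was at least 1454-fold higher in KO1 and at least 1532-fold higher in KO2, with limma adjusted p of 7.29e-08 and 7.55e-08. Such floors account for counting error alone, because reads with no molecular identifier may be copies of 1 molecule.

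FADS1 and FADS2, the delta-5 and delta-6 desaturases of the same polyunsaturated route, were higher as well. FADS1 (chromosome 11, 61799625 to 61829318, minus strand) read 1.82 and 1.87 FPKM in WT, 54.0 and 52.3 in KO1, and 61.2 and 60.9 in KO2, which is 28.8-fold and 33.0-fold higher. FADS2 (chromosome 11, 61792980 to 61867354, plus strand) read 0.508 and 0.568 FPKM in WT, 3.22 and 2.71 in KO1, and 3.82 and 3.84 in KO2, which is 5.50-fold and 7.12-fold higher. The GENCODE span of FADS1 lies wholly inside that of FADS2 on the other strand, and no source used here gives the strand setting of the counting. How far reads of the 2 genes are mixed is therefore not known, and their values are uncertain. FADS3, their neighbour 6.165 kb from FADS2, was also higher, by 3.71-fold and 3.72-fold.

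The other 3 genes of this group differed from that pattern. SCD, which makes oleate from stearate, read 179.7 and 182 FPKM in WT, 194 and 190.5 in KO1, and 192 and 196 in KO2. Its rise was 0.09 ± 0.02 log2 in KO1 and 0.10 ± 0.02 in KO2 (limma adjusted p = 0.0205 and 0.0118), and was lost in KO1 without either WT library (adjusted p = 0.0923 and 0.0504) or either KO1 library (0.121 and 0.0531), and in KO2 without WT replicate 1 (0.0592). ELOVL6, which elongates palmitate to stearate, read 20.3 and 20.4 FPKM in WT, 5.11 and 5.42 in KO1, and 4.66 and 4.82 in KO2. It was 3.86-fold and 4.29-fold lower. ACSL3, which activates fatty acids to acyl-CoA, read 39.5 and 38.1 FPKM in WT, 31.1 and 30.6 in KO1, and 27.6 and 28.6 in KO2, and was lower in both.

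Between the knockout groups, KO2 minus KO1, 11 of the 31 genes were called lower (35.5%, against a background of 15% of all tested genes) and 6 higher (19.4%, against 11.2%). The median over the 31 was -0.06 log2, and over all genes -0.01. Of 9303 genes reaching 5 FPKM in 2 or more libraries, 2292 were called lower and 1536 higher (median -0.03). With each library left out in turn 9 of the 17 calls were kept. Of these, 6 were sterol or mevalonate genes that were lower again in KO2: SQLE (-0.46 ± 0.02), MSMO1 (-0.41 ± 0.03), HMGCS1 (-0.40 ± 0.03), MVD (-0.33 ± 0.04), FDFT1 (-0.30 ± 0.02) and ACAT2 (-0.30 ± 0.03), with limma adjusted p of 6.92e-04 to 0.00432. The other 3 were higher in KO2: PMVK (0.79 ± 0.05 log2, limma adjusted p = 0.00105), FASN (0.65 ± 0.04, adjusted p = 9.95e-04) and FDPS (0.64 ± 0.03, adjusted p = 6.50e-04). The count of lower genes fell from 11 to 6 without KO1 replicate 1, and also to 6 without KO1 replicate 2. Against a fold of 1.5, limma called 0 genes higher and 0 lower (background 0.256% and 0.548%), and at an unadjusted p under 0.05 the counts were 1, PMVK, and 0.

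The 31 genes were set beside the tested protein-coding genes within 1 Mb of each. Of all tested genes, 39.3% were called higher and 38.6% lower in KO1, and 39.1% and 39.8% in KO2. In KO2 minus KO1 these shares were 11.2% and 15%. PMVK (chromosome 1, 154924734 to 154936991) and FDPS (chromosome 1, 155308748 to 155320666) lie 372 kb apart. Each is thus among the other's neighbours, and their windows largely overlap, so their neighbour counts are not separate observations. Around PMVK, 38 of 49 neighbours were higher in KO1 and 47 in KO2 (medians 0.47 and 1.07 log2), and 45 were higher in KO2 than in KO1 (median 0.64). For FDPS the medians of its 53 neighbours were 0.47, 1.08 and 0.64, so that both genes lay among neighbours that moved as they did between KO1 and KO2. Around FASN 39 of 54 neighbours were higher in KO2 than in KO1 (median 0.39) and 1 was lower, while against WT their medians were -0.24 in KO1 and 0.04 in KO2. Around EBP (chromosome X, 48521158 to 48528716) 29 of 31 neighbours were higher in KO1 and 28 in KO2 (median 0.95 in each). PMVK, FDPS and FASN thus had the sign of their neighbours' median in KO2 minus KO1, and EBP had it in both comparisons with WT.

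ACLY lies 242 kb from KRT17, and its 46 neighbours were lower in 29 cases in each knockout group (medians -0.57 and -0.70). These neighbours include the targeted gene KRT17 and the epithelial marker KRT19. The difference of ACLY was -2.19 and -2.13. SREBF2 (chromosome 22, 41833079 to 41907308) had 25 of 35 neighbours lower in KO1 and 27 in KO2 (medians -0.62 and -0.70). IDI1, at -0.88 and -0.97, lay near the medians of its 5 neighbours (-0.84 and -0.95). FDFT1 had 8 of 10 neighbours lower in each group (medians -1.04 and -0.92). ACACA had 12 of 17 lower in KO1 and 13 in KO2 (medians -0.41 and -0.48). TM7SF2 and NSDHL instead fell among neighbours whose medians were above 0 in both groups. HMGCS1 lay below all its neighbours: all 7 were higher in both groups (medians 1.35 and 1.24), while it was lower. ELOVL5 and FADS1 lay above all of theirs in both comparisons, with medians of 0.43 and 0.33 for the 9 neighbours of ELOVL5 and of -0.25 and 0.03 for the 46 of FADS1. ELOVL6 and DHCR7 lay below all of theirs in both comparisons. Of the 26 genes with 5 or more neighbours, 13 had the sign of their neighbours' median in KO1 and 15 in KO2. In KO2 minus KO1 17 had it, and SQLE and LSS lay below all their neighbours.

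**Figure D3:**
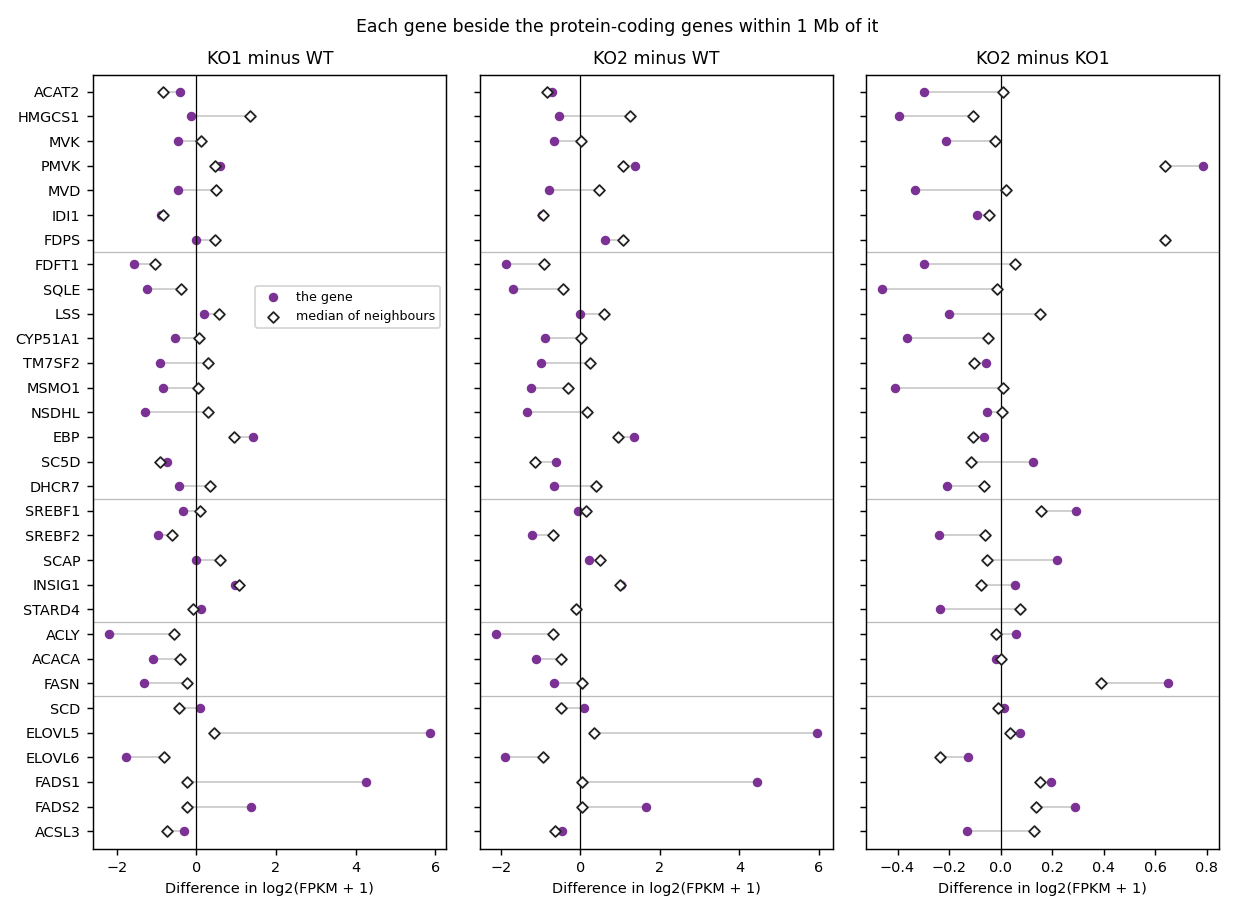
Difference of each gene (circle) and the median difference of the tested protein-coding genes within 1 Mb of it (diamond), on the log2(FPKM + 1) scale, in the 3 comparisons, whose horizontal scales differ. A diamond with no visible circle lies on top of it. PMVK, FDPS and FASN sit far right with their neighbours in KO2 minus KO1, and ELOVL5 and FADS1 sit far from theirs in both comparisons with WT.

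Genes of adjoining lipid pathways were called in both directions, which is also what all tested genes gave (39.3% higher and 38.6% lower in KO1, 39.1% and 39.8% in KO2), so nothing is read from the counts of these 5 lists. Of 10 other genes of sterol synthesis and SREBP processing, 5 were higher and 4 lower in KO1, and 5 were higher and 5 lower in KO2 (medians 0.14 and 0.11 log2). MBTPS2, the site-2 protease that cleaves SREBPs, was 2.15-fold and 2.04-fold higher, and HSD17B7, a sterol ketone reductase, 1.49-fold and 1.80-fold higher. ERLIN2, an endoplasmic reticulum protein that binds the SREBP-SCAP-INSIG complex, was 2.23-fold and 2.19-fold higher. ERG28, a scaffold of the C4 demethylation enzymes, was 2.70-fold and 3.01-fold lower, and LBR, a C14 sterol reductase of the nuclear envelope, 2.42-fold and 2.79-fold lower.

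In sterol trafficking, esterification and efflux, 11 of 12 genes were tested, with 4 higher and 6 lower in KO1 and 4 higher and 5 lower in KO2. The sterol exporters rose from low levels. ABCA1 read 0.110 and 0.0815 FPKM in WT, 2.30 and 2.56 in KO1, and 2.27 and 2.41 in KO2, 25.3-fold and 24.4-fold higher. ABCG1 was 25.2-fold and 17.0-fold higher, from a mean of 0.347 FPKM. SOAT1, which esterifies cholesterol for storage, was 1.96-fold and 3.46-fold higher. NR1H3, the gene of the sterol-sensing receptor LXR-alpha that is known to drive both exporters, was 1.69-fold and 2.001-fold lower. NPC2, which carries cholesterol out of lysosomes, was 3.18-fold and 2.50-fold lower, and OSBP, an oxysterol-binding lipid exchanger, 1.30-fold and 1.31-fold lower.

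Other genes of fatty acid synthesis and modification (20 of 22 tested) gave 9 higher and 10 lower in each knockout group. ELOVL3, an elongase of saturated chains, was 7.66-fold and 6.32-fold higher, and ACACB, the mitochondrial acetyl-CoA carboxylase, 4.72-fold and 5.09-fold higher. ACSL1, an acyl-CoA synthetase, was 10.9-fold and 33.8-fold lower. ACSL5, of the same family, was 15.1-fold and 25.6-fold lower, and ELOVL7, another elongase, 7.43-fold and 7.20-fold lower.

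In fatty acid uptake and lipid storage (13 of 17 tested), 4 were higher and 7 lower in each group. FABP5, a fatty acid carrier, read 87.2 and 81.6 FPKM in WT and had 0 reads in KO1, at least 1346-fold lower, and 2 reads in KO2. AGPAT2, an acyltransferase of glycerolipid synthesis, was 1.90-fold and 4.18-fold lower, and DGAT1, which makes triglyceride, 1.87-fold and 2.31-fold lower. MGLL, which releases fatty acid from monoglyceride, was 5.21-fold and 4.13-fold higher, PLIN3, a lipid droplet coat protein, 2.23-fold and 2.40-fold higher, and LPIN1, a phosphatidate phosphatase, 1.29-fold and 1.28-fold higher.

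Fatty acid oxidation (16 genes, all tested) gave 6 higher and 8 lower in each knockout group. SLC25A20, the carnitine-acylcarnitine carrier of mitochondria, was 3.87-fold and 3.94-fold higher, ACAA2, a thiolase, 2.44-fold and 2.10-fold higher, and ETFDH, which passes electrons to ubiquinone, 1.53-fold and 1.81-fold higher. HADHA was 1.497-fold and 1.44-fold lower, and ECHS1 1.39-fold and 1.40-fold lower, both enzymes of the mitochondrial cycle. The genes named from these 5 lists were called in the same direction in both knockout groups by the same limma fit.

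**Figure D4:**
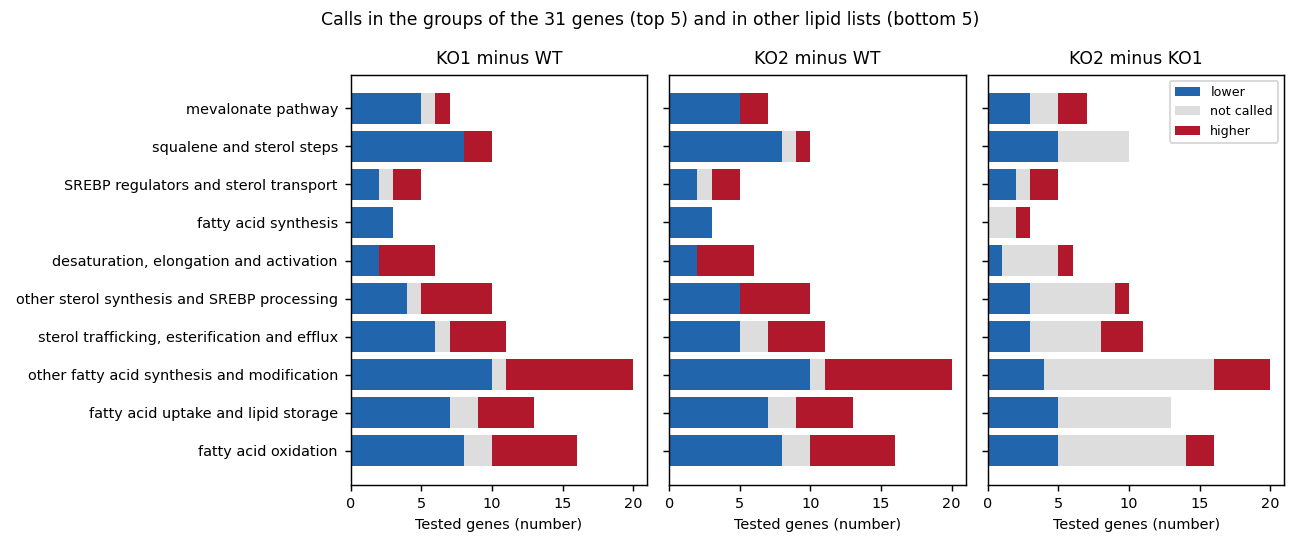
Number of tested genes called lower (blue), not called (grey) and called higher (red) in the 5 groups of roles (top) and the 5 adjoining lipid lists (bottom), in the 3 comparisons. In both comparisons with WT the squalene and sterol group is lower in 8 of 10 genes, with 2 higher in KO1 and 1 in KO2. The fatty acid synthesis group is lower in 3 of 3. The other groups of roles and the adjoining lists hold both directions.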

How the data were processed

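RNA of 6 libraries was measured, 2 each of WT, KO1 and KO2, grouped by their titles. Each file holds FPKM values, which the authors made and deposited. The submitters' processing notes name HISAT2 2.0.5, featureCounts 1.5.0-p3 and the build hg38. Neither the labels nor the files give tool roles, strand setting, treatment of multiply mapped reads or annotation.

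Genes were named by GENCODE 29, which gave GRCh38 coordinates. FPKM times union exon length came to whole multiples of a library's step (100% within 0.1 of a step), so reads were recovered (17599759 to 22852340 per library). Replicates differed beyond counting error (chi-square per degree of freedom 2.46 in WT, 1.80 in KO1 and 2.40 in KO2).

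The filter kept genes reaching 1 FPKM in 2 or more libraries (16046). They entered limma 3.58.1 in R 4.3.3 on log2(FPKM + 1), with group means, a mean-variance trend and all 6 libraries. A gene was called below an adjusted p of 0.05 (Benjamini-Hochberg over all 16046). This scale understates changes of low genes. Folds are ratios of mean FPKM. With 0 reads in a group, a floor of 3 reads per library was used.

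The 31 genes, the 5 other pathway lists and the 7 marker lists were chosen with earlier results of these data known. All 31 are named. From each pathway list up to 3 genes with the highest and up to 3 with the lowest average difference are named, if called the same way in both knockout groups and averaging 1 FPKM or more in WT or over the knockouts. Some genes that this rule selects are left out of the text. Promoter windows came from RefSeq (GRCh38.p14). Alternatives were pseudocount 0.1, no filter, a filter of 5 FPKM, quantile normalization, read totals as the only scaling, voom on recovered reads, only the groups compared, a test against a fold of 1.5, the replicate number as a block, and leaving out each library.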

Additional observations from a re-analysis of the deposited data

Results flagged for a closer look

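Levels differed between the KO1 and KO2 libraries for 17 of the 31 genes, 6 higher and 11 lower, by the limma contrast KO2 minus KO1 (Benjamini-Hochberg adjusted p below 0.05, log2 differences ± SE), beside 11.2% higher and 15% lower of all tested genes. A difference in the effect of the knockout and other differences between the groups cannot be told apart here. Around PMVK, FDPS and FASN, 45 of 49, 44 of 53 and 39 of 54 neighbours within 1 Mb were higher in KO2 as well. The windows of PMVK and FDPS overlap, so their counts share genes. The contrast KO2 minus KO1 sets the KO2 libraries directly against the KO1 libraries. The difference was positive for PMVK (0.79 ± 0.05), FASN (0.65 ± 0.04), FDPS (0.64 ± 0.03), SREBF1 (0.29 ± 0.04), SCAP (0.22 ± 0.05) and FADS1 (0.20 ± 0.03). It was negative for SQLE (-0.46 ± 0.02), MSMO1 (-0.41 ± 0.03), HMGCS1 (-0.40 ± 0.03), MVD (-0.33 ± 0.04), FDFT1 (-0.30 ± 0.02), ACAT2 (-0.30 ± 0.03), SREBF2 (-0.24 ± 0.04), STARD4 (-0.23 ± 0.04), DHCR7 (-0.21 ± 0.03), LSS (-0.20 ± 0.04) and ACSL3 (-0.13 ± 0.03).

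For 8 of the 17 genes the call was lost when a library was left out, with the adjusted p then as follows. SREBF1 lost it without KO1 replicate 1 (0.0565). DHCR7 lost it without KO1 replicate 1 (0.0629) or 2 (0.0707). FADS1 lost it without KO1 replicate 2 (0.0724), KO2 replicate 1 (0.0539) or KO2 replicate 2 (0.0517). SREBF2 lost it without KO1 replicate 1 (0.0718) or 2 (0.0658) or KO2 replicate 1 (0.0551). LSS, STARD4, SCAP and ACSL3 lost it without any of the 4 knockout libraries, at 0.0529 to 0.108 for LSS, 0.0503 to 0.0842 for STARD4, 0.0790 to 0.151 for SCAP and 0.0737 to 0.186 for ACSL3.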

How the results depend on the processing

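The calls of 16 of the 31 genes in KO1 minus WT, 18 in KO2 minus WT and 5 in KO2 minus KO1 were kept under every alternative run. Against a fold of 1.5, 5 genes were higher and 11 lower in KO1, 12 were lower in KO2, and in KO2 minus KO1 0 were higher and 0 lower, since that test asks for a larger difference. With each library left out in turn, the genes lower in KO2 minus KO1 numbered 6 to 12. Over all tested genes the counts moved by over 1.5 times in KO2 minus KO1, from 1800 higher and 2403 lower to 850 and 986 without KO1 replicate 1, 840 and 1092 without KO1 replicate 2, 1069 higher without KO2 replicate 1, and 1024 higher and 1523 lower without KO2 replicate 2, and 2725 were higher with voom. With a filter of 5 FPKM, which leaves 9303 genes, 3898 were higher in KO1 and 3801 in KO2, from 6299 and 6274. Against a fold of 1.5 they were 2950 and 3023 in KO1, 2989 and 3206 in KO2, and 41 and 88 in KO2 minus KO1.

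Scaling shifted the median of all genes from 0.02 in KO1 and 0.01 in KO2 to 0.13 and 0.14 (read totals as the only scaling) and to 0.16 and 0.17 (voom). Some values near 0 changed sign, and the cause was not tested. Under quantile normalization these were FDPS (0.14) and SCAP (0.0352) in KO1, LSS (0.0845) and SREBF1 (0.11) in KO2, and ACACA (0.0218) in KO2 minus KO1. With read totals as the only scaling they were FDPS (0.12) and SCAP (0.11) in KO1, LSS (0.13), SREBF1 (0.10) and STARD4 (0.0319) in KO2, and ACACA (0.00853) in KO2 minus KO1. With voom they were FDPS (0.13) and SCAP (0.13) in KO1, LSS (0.14), SREBF1 (0.11) and STARD4 (0.0317) in KO2, and ACACA (0.00889) in KO2 minus KO1. Leaving out a library, SCAP in KO1 ranged from -0.0583 to 0.0334. In KO2 minus KO1, TM7SF2 ranged from -0.15 to 0.0342, NSDHL from -0.18 to 0.0724, EBP from -0.14 to 0.00960, ACACA from -0.0402 to 0.00635 and SCD from -0.00058 to 0.0285.

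With a replicate block, 8 genes were higher and 20 lower in KO1, 9 higher and 19 lower in KO2, and 5 higher and 10 lower in KO2 minus KO1. The labels do not say that a replicate number pairs libraries, and same-numbered libraries did not deviate together (r across genes of 0.0191 for WT and KO1, -0.00406 for WT and KO2 and -0.0383 for KO1 and KO2). Depth limits FADS2 in WT (236 reads in both libraries together) most among the genes with reads in all groups.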
